A study of Ovis aries with 16 samples.

Results

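LRRC8D, listed with the identifier ENSOARG00000010354, is 1 of the 25197 Ensembl genes whose expression was measured by RNA-seq in the testes of 16 adult Merino male sheep. It was chosen because it differed between diets in these same libraries. Among the 1204 genes called higher in underfed sheep it had the 4th smallest p-value, so its difference between diets is given below as a description and without a test. Sheep were fed either a high diet, designed for a gain of 10% in body mass over 65 days, or a low diet, designed for a loss of 10% over the same time (n = 8 in each group, 1 library per sheep). Both groups were housed in individual pens, and a group kept on a maintenance diet was not sequenced, so neither is an unchanged control. RNA came from pieces of the right testis that were mixed before extraction, so each value is an average over all cell types of the organ. The 8 high diet libraries held 9552149 to 18230076 reads on genes, with a median of 13997249.5, and the 8 low diet libraries 7646547 to 14690953, with a median of 10883403.5. At these depths 3 reads correspond to between 0.165 and 0.392 CPM (the reads of a gene as a share of its library, scaled to a fixed total), far below every LRRC8D value.

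LRRC8 proteins assemble into the volume-regulated anion channel, which opens when a cell swells and lets chloride and organic osmolytes leave so that the cell returns to its former volume. LRRC8A is the obligatory subunit, and the others, among them LRRC8D, join it and set what the channel passes. Channels that contain LRRC8D favour uncharged and organic solutes such as taurine, and also admit the drug cisplatin. In the testis, developing spermatids shed most of their cytoplasm, and male mice that lack LRRC8A form abnormal sperm and are infertile. The Sertoli cells that surround the germ cells secrete the fluid of the seminiferous tubules.

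LRRC8D was detected in every testis, from 224 to 929 reads per library. In well-fed sheep the lowest value was 15.7 CPM in high diet 8, from 286 reads (95% Wilson interval 14.0 to 17.6), and the highest was 29.2 CPM in high diet 3, from 279 reads (26.0 to 32.8). Between them lay high diet 1 at 19.2 CPM, high diet 6 at 20.8 CPM, high diet 5 at 22.7 CPM, high diet 4 at 23.7 CPM, high diet 2 at 24.2 CPM and high diet 7 at 25.3 CPM. The well-fed group therefore formed a single run with no gap between neighbouring sheep. In underfed sheep the lowest value was 36.1 CPM in low diet 5, from 520 reads (33.1 to 39.3), and the highest was 69.0 CPM in low diet 4, from 585 reads (63.6 to 74.8). Low diet 8 stood at 39.1 CPM and low diet 1 at 39.2 CPM, followed by low diet 7 at 51.5 CPM, low diet 3 at 54.7 CPM, low diet 2 at 56.9 CPM and low diet 6 at 63.2 CPM. The underfed group thus had 3 sheep below 40 CPM and 5 above 50 CPM. Intervals cover counting error only and hold no spread between sheep or library preparations. They also treat reads as independent, which reads made by PCR are not.

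**Figure D1:**
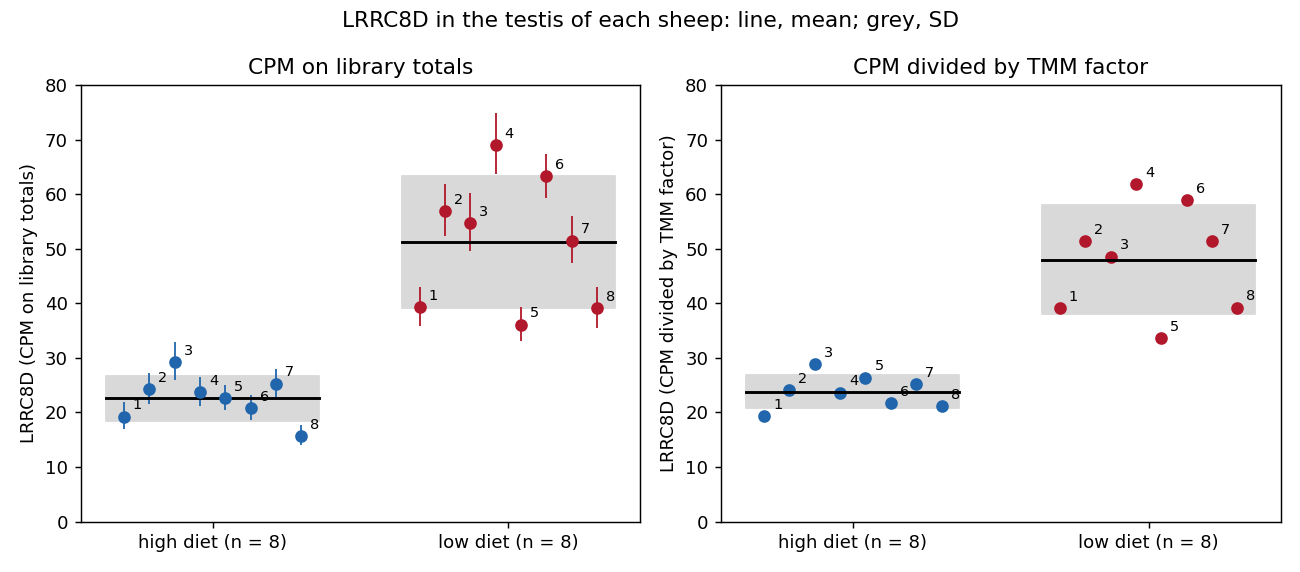
LRRC8D in the testis of each of 8 high diet sheep (blue) and 8 low diet sheep (red), in CPM on library totals with 95% Wilson intervals (left) and in CPM divided by the TMM factor of the library (right); numbers are the sheep, black lines the mean and grey bands the SD. On both scales every low diet sheep lies above every high diet sheep, and high diet 8 moves from 15.7 to 21.2 between the panels.

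The mean level was 22.6 ± 4.09 CPM in well-fed and 51.2 ± 12.1 CPM in underfed sheep (SD, n = 8), and the medians were 23.2 and 53.1 CPM. The diets did not overlap. The lowest underfed sheep was 6.90 CPM, or 1.24 times, above the highest well-fed sheep. Complete separation in this direction was found in 85 of the 11148 genes tested, or 0.762%, and LRRC8D was chosen in part by that difference. The ratio of mean CPM was 2.27. Within the order of all 16 sheep, 13 of 15 neighbouring pairs had overlapping counting intervals, and the pairs that were apart were high diet 3 with low diet 5, at the border of the diets, and low diet 1 with low diet 7, inside the underfed group.

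Scaling for RNA composition changed high diet 8 and high diet 5 more than the group comparison. TMM factors, which rescale each library to the bulk of its genes, were lowest in high diet 8 (0.739) and high diet 5 (0.859) and highest in low diet 3 (1.13). After division by them LRRC8D was 23.8 ± 3.06 CPM in well-fed sheep, with a range of 19.3 to 28.9, and 48.0 ± 10.0 CPM in underfed sheep, with a range of 33.6 to 61.9 (SD, n = 8). The lowest underfed sheep remained 1.16 times the highest well-fed one. On the log2 scale, with 1 CPM added, the means were 4.62 ± 0.18 and 5.59 ± 0.30, a difference of 0.97 (SE 0.15, limma fit over all genes). The median difference over all tested genes was 0.01 on this scale and 0.17 on library totals, where LRRC8D differed by 1.13.

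The spread of LRRC8D between sheep of one diet holds differences between animals and between library preparations, which cannot be told apart here. The coefficient of variation of CPM was 18.1% in well-fed and 23.6% in underfed sheep, and it fell to 12.9% and 20.8% after TMM scaling. Counting alone, the smallest error such data can have, gave a mean relative error of 5.74% and 4.34% in the same groups. The highest sheep had 1.86 times the CPM of the lowest among the well-fed and 1.91 times among the underfed.

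Of the 5 LRRC8 genes, LRRC8D alone could be followed, since the identifiers of LRRC8A, LRRC8B, LRRC8C and LRRC8E were not matched to a symbol in the tables used here. Symbols were matched to 1763 of 25197 identifiers through the study's lists of differentially expressed genes. This ties a symbol to a diet difference, and 1352 of the 1763 tested genes with a symbol (76.7%) but 456 of 9385 without one (4.86%) were called. In the gene order of the sheep reference genome ARS-UI_Ramb_v3.0, LRRC8D lies between LOC105611344, a long non-coding RNA gene, and LOC121819678, another. LRRC8C, LOC105611345 and, on the other side, ZNF326 and TRNAC-ACA are the next genes. These 6 neighbours were not analysed here because none was matched to an identifier, and coordinates are not given because the reads were aligned to another assembly, Oar_v3.1. Whether the reads were counted by strand is not given in the sources used here, so reads of a gene overlapping LRRC8D on the opposite strand could not be told apart from its own.

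Volume regulation also depends on transporters and channels that move ions and water, on kinases that sense chloride, and on genes that make or carry osmolytes. Of 51 such genes besides LRRC8D, 5 were matched to an identifier, all of them channels or transporters. None of 9 kinases and none of 12 osmolyte genes was matched. All 5 were called higher in underfed sheep (adjusted p under 0.1 and a ratio of mean CPM above 1.5), against 10.8% of all genes tested, with a median log2 difference of 1.19 against 0.01 over all genes. Because the symbols come from lists of genes that differed in these samples, this count was largely fixed by the matching and is not independent evidence of a direction.

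ANO6, a calcium-activated lipid scramblase that also conducts ions, was 25.9 ± 9.50 CPM in well-fed and 50.4 ± 12.6 CPM in underfed sheep (SD, n = 8), a log2 difference of 0.80 (SE 0.20). AQP8, a water channel, was 28.0 ± 9.27 and 56.0 ± 16.5 CPM, a log2 difference of 0.83 (SE 0.24). In both genes single underfed sheep lay inside the well-fed range, 2 for ANO6 and 1 for AQP8. SLC4A2, an anion exchanger, rose from 8.24 ± 5.25 to 21.4 ± 8.86 CPM and had a log2 difference of 1.27 (SE 0.35). The limma adjusted p (Benjamini-Hochberg) was 0.032 for ANO6, 0.046 for AQP8 and 0.040 for SLC4A2.

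Calls for the other members of the list were less firm. CLCN2, a chloride channel opened by hyperpolarization, was 12.6 ± 9.28 CPM in well-fed and 31.5 ± 18.4 CPM in underfed sheep (limma, Benjamini-Hochberg adjusted p = 0.060). PIEZO1, a mechanosensitive cation channel, was 4.46 ± 3.85 and 13.1 ± 9.84 CPM (adjusted p = 0.088 in the same limma fit with Benjamini-Hochberg adjustment). Its well-fed mean and median (3.16 CPM) lay below the 5 CPM of the filter, and it had as few as 5 reads in a library. CLCN2 lost its call when high diet 5, 6 or 8 or low diet 4 or 6 was left out, with adjusted p between 0.11 and 0.13. PIEZO1 lost it with edgeR on the recovered reads (quasi-likelihood test, Benjamini-Hochberg adjusted p = 0.10), with no filter on low values (limma, adjusted p = 0.13) and when any of 10 sheep was left out (high diet 1, 2, 5, 6 or 8, or low diet 3, 4, 5, 6 or 8), with adjusted p up to 0.18. With testis weight as a covariate none of the 5 was called by limma, nor was any other gene, while their log2 differences were 0.85 for ANO6, 0.79 for SLC4A2, 0.78 for CLCN2, 0.70 for PIEZO1 and 0.35 for AQP8.

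Sheep to sheep, with the diet means removed, Pearson's r of these 5 genes with LRRC8D over the 16 libraries was between 0.34 for CLCN2 and 0.49 for PIEZO1 (Spearman's rho 0.29 to 0.51). As background, r with LRRC8D over all tested genes had a median of -0.01, with 5% of genes below -0.50 and 5% above 0.51. These correlations describe libraries that share their depth and their RNA composition, and no test is attached to them.

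**Figure D2:**
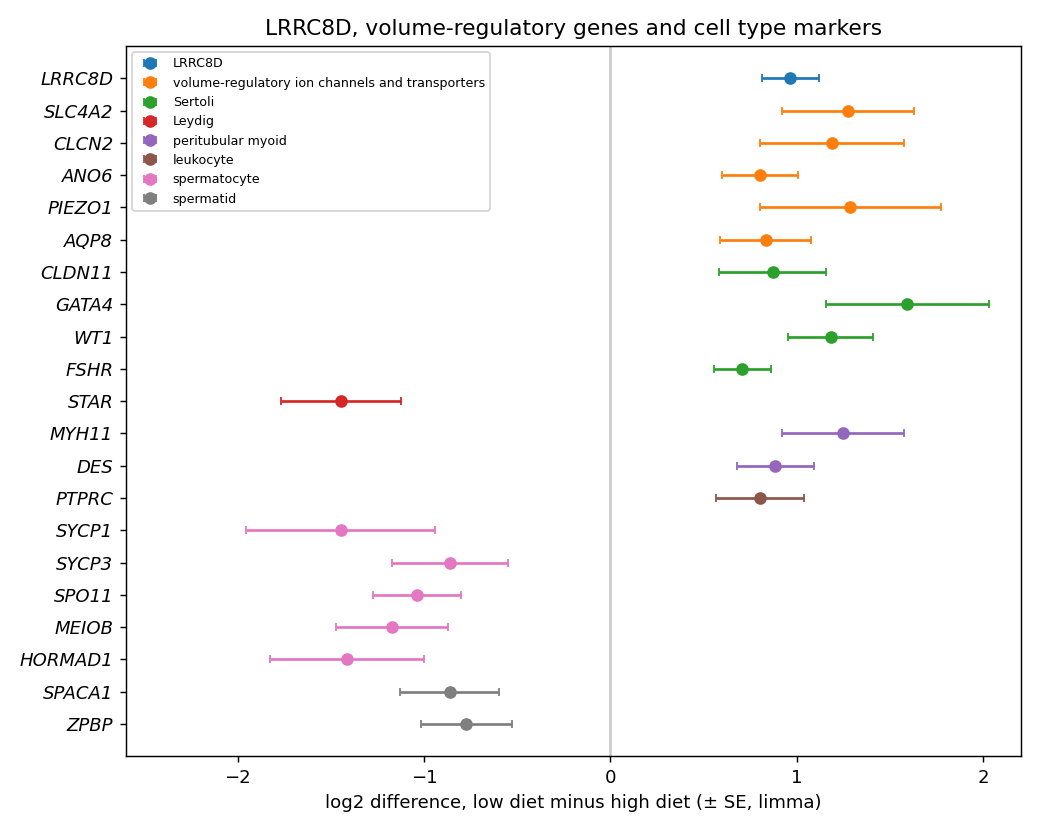
Differences between diets on the log2 scale (low diet minus high diet, ± SE, limma, n = 8 per diet) for LRRC8D, the 5 volume-regulatory channels and transporters and the 15 cell type markers that could be matched to an identifier, coloured by list. LRRC8D at 0.97 lies among the volume-regulatory, Sertoli and peritubular myoid genes, to the right of 0, while the spermatocyte and spermatid markers and the Leydig marker STAR lie to the left.

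Testes of underfed sheep also differed in the levels of genes that mark cell types. In bulk samples fewer cells of a type and less RNA per cell cannot be told apart. Of 48 markers 15 were matched to an identifier (31.25%), too few for a check of cell composition, and the same tie between symbol and call applies. Read against the 76.7% of genes with a symbol that were called, and the 10.8% higher and 5.42% lower among all genes tested, counts of called markers say little. The Sertoli markers CLDN11, GATA4, WT1 and FSHR were all called higher in underfed sheep. Their summed level was 100.1 to 135 CPM in the well-fed group (median 122) and 169 to 499 CPM in the underfed group (median 282), again without overlap. Spermatocyte markers went the other way. All 5 matched were called lower, with a summed level of 285 to 930 CPM in well-fed (median 536) and 71.0 to 455 CPM in underfed sheep (median 300). Of the other lists, 2 peritubular myoid markers and the leukocyte marker PTPRC were called higher, and the Leydig marker STAR and 1 of 2 spermatid markers lower. CLDN11 lost its call without low diet 3, 4 or 6 (limma, Benjamini-Hochberg adjusted p from 0.10 to 0.12), and SYCP1, SYCP3 and SPACA1, which mark spermatocytes and spermatids, lost theirs without high diet 5, high diet 8 or low diet 6. SYCP1 and SYCP3 also lost it without high diet 1 or 6, SYCP3 and SPACA1 without low diet 4, and SYCP3 without low diet 8. None of the 15 markers was at 0 in any library, and no spermatogonial or endothelial marker was matched.

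Set against the Sertoli markers of the same library, LRRC8D differed between diets by less than the spread between sheep. The ratio of LRRC8D to their summed CPM ranged from 0.156 to 0.240 under the high diet (median 0.186) and from 0.103 to 0.239 under the low diet (median 0.208), so the underfed range enclosed nearly all of the well-fed one. Means were 0.185 ± 0.0286 and 0.196 ± 0.0449 (SD, n = 8), a log2 difference of 0.06. The markers were matched through lists of genes that differed between diets, and all were called higher, as LRRC8D was. A small difference in the ratio was thus largely fixed by the matching and does not show that LRRC8D follows Sertoli cells. The lowest ratio belonged to low diet 7, the sheep with the highest CLDN11 value. Without CLDN11, an alternative chosen after the values were seen, the ratios were 0.328 to 0.423 and 0.339 to 0.502, with a log2 difference of 0.04. The choice of marker mattered more than that. Against single markers the log2 difference of the ratio was 0.27 for FSHR and 0.12 for CLDN11, but -0.24 for WT1 and -0.88 for GATA4. GATA4 had as few as 14 reads in a library, and its ratio ran from 1.65 to 20.4 in well-fed and from 1.49 to 8.94 in underfed sheep.

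The ratio was also taken against markers of germ cells and of the tubule wall. Relative to the 5 spermatocyte markers LRRC8D was 0.0169 to 0.0878 in well-fed and 0.0862 to 0.891 in underfed sheep, a log2 difference of 2.38, and 7 of 8 underfed sheep lay above every well-fed sheep. All 5 were called lower and were matched through the same lists, so a difference in this direction was largely fixed by the matching. Relative to the peritubular myoid markers MYH11 and DES, both called higher, LRRC8D was 0.0928 to 0.401 in well-fed and 0.121 to 0.329 in underfed sheep, a log2 difference of -0.24 with the ranges nested. Sheep to sheep, with diet means removed, r with LRRC8D was 0.73 for WT1, a transcription factor of Sertoli cells, and 0.65 for FSHR, the receptor through which follicle-stimulating hormone acts on them. It was 0.44 for GATA4, another transcription factor, and 0.23 for CLDN11, which forms tight junctions of the blood-testis barrier. In well-fed sheep alone r was 0.47 for WT1, 0.30 for FSHR, 0.48 for GATA4 and -0.57 for CLDN11. It was 0.64 for PTPRC, 0.08 for DES and 0.41 for MYH11 in the same sheep. In underfed sheep alone r was 0.91, 0.90, 0.46 and 0.42, and 0.47, 0.64 and 0.52, in the same order. With diet means removed, markers of other cells lay below WT1 and FSHR, with 0.52 for PTPRC, 0.45 for DES and 0.44 for MYH11. Germ cell markers were negative, from -0.36 for SPO11 to -0.60 for SYCP3 and -0.63 for SPACA1, and STAR was -0.36. The part of cell composition in the LRRC8D difference was not tested.

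Traits recorded for the same sheep allowed a question that the choice of the gene did not use, namely whether LRRC8D varied with the state of the testis among sheep on one diet. Both LRRC8D and each trait were taken as deviations from their diet mean, since a correlation across diets would only restate the separation of the groups. None of the 6 relations passed correction. The strongest were negative, with r = -0.37 for testis weight (permutation p = 0.24, Benjamini-Hochberg adjusted p = 0.71, n = 16) and r = -0.34 for the volume of seminiferous epithelium (permutation p = 0.23, adjusted p = 0.71). Their rho values were -0.30 and -0.37 (permutation p = 0.29 and 0.17, adjusted p = 0.57 for both). Leaving out the 2 sheep whose trait values lay farthest from its median, r was -0.35 and -0.34. Among all genes tested, 13.2% had a larger correlation with testis weight in either direction and 9.98% with the epithelial volume.

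For the 4 other traits r over all 16 sheep was closer to 0, though rho for sperm number was not. Sperm number per testis gave r = -0.08 (permutation p = 0.84) and rho = -0.34 (permutation p = 0.24), tubule diameter r = -0.08 (permutation p = 0.77) and rho = -0.25 (permutation p = 0.38), and the change in scrotal circumference r = 0.08 (permutation p = 0.76) and rho = -0.10 (permutation p = 0.72). Adjusted p was 0.84 for each of these r values and 0.57, 0.57 and 0.85 for the rho values. For apoptotic germ cells per tubule r was 0.17 (permutation p = 0.68, adjusted p = 0.84) and rho 0.06 (permutation p = 0.85, adjusted p = 0.85), and r rose to 0.61 without the 2 farthest sheep (permutation p = 0.063, n = 14), so this relation depended on single animals.

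Within each diet, exact permutation tests over 12 relations gave adjusted p = 0.94 throughout. The largest coefficient was for sperm number in well-fed sheep, r = -0.62 (exact permutation p = 0.10, n = 8), against 0.03 in underfed sheep, where rho was -0.50. Without the 2 farthest sheep of each diet, sperm number gave -0.61 in well-fed and -0.55 in underfed sheep. Tubule diameter gave -0.14 and -0.06 with all sheep and -0.54 and -0.52 without those 2. Testis weight gave -0.17 in well-fed and -0.44 in underfed sheep, which became 0.0069 and 0.077 without the 2 farthest sheep of each diet. Epithelial volume gave -0.37 and -0.34, which became -0.21 and -0.0087. For scrotal circumference in well-fed sheep r was 0.30 with all 8 animals and -0.94 without the 2 farthest, so its sign rested on those sheep. Apoptotic germ cells gave -0.20 in well-fed and 0.22 in underfed sheep, and -0.10 and -0.04 without the 2 farthest of each diet. With 8 sheep a diet, relations of moderate size could not be resolved.

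**Figure D3:**
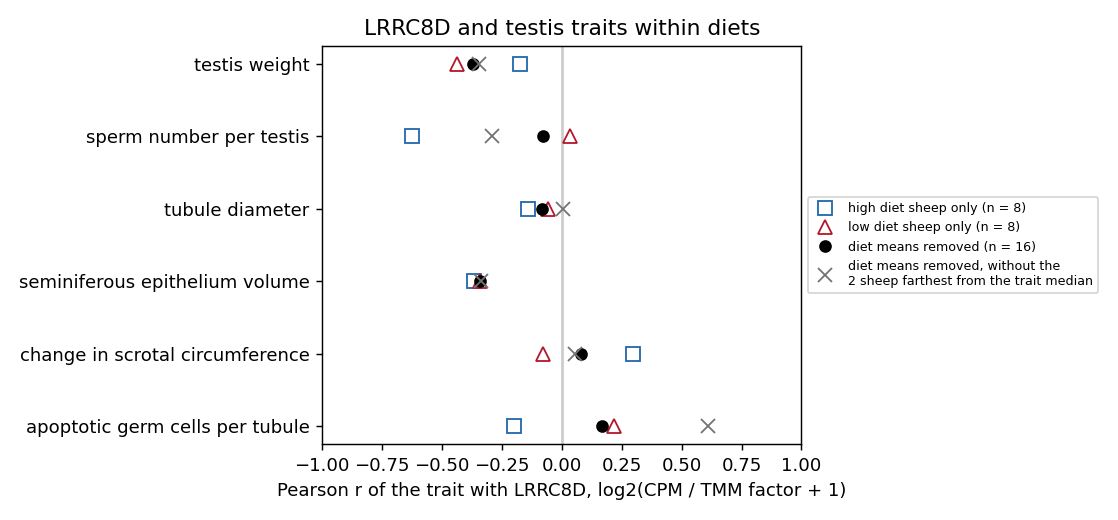
Pearson's r of LRRC8D, as log2(CPM divided by TMM factor + 1), with 6 testis traits: over 16 sheep with diet means removed (black), the same without the 2 sheep farthest from the trait median (grey crosses), and within high diet (blue squares) and low diet sheep (red triangles, n = 8 each). Values for testis weight and epithelial volume are negative in all 4 calculations, from -0.17 to -0.44, while for the other traits some lie on either side of 0 or near it.

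Technical measures of the libraries were related to LRRC8D no more firmly. With diet means removed, r was -0.29 with the total number of reads (rho -0.21), 0.28 with the TMM factor (rho 0.22) and 0.29 with the CPM of the most abundant feature (rho 0.28, adjusted permutation p = 0.39 for each r, 3 relations, n = 16). The last of these was -0.06 without the 2 farthest libraries. On library totals the coefficients were -0.49 for reads and 0.63 for the TMM factor, so part of the spread of the unscaled CPM moved with composition. No sequencing batch is given in the labels.

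The genes whose pattern was most like that of LRRC8D were sought by Pearson's r over the 16 libraries with the diet means removed, among tested genes with a symbol. Removing the means takes the average diet difference out of this measure. PKD2, the calcium-permeable channel polycystin-2, was first with r = 0.87. Next came PTPRG, a receptor tyrosine phosphatase, and CDH2, the adhesion molecule N-cadherin, both with r = 0.85, and then TMEM2, a cell-surface hyaluronidase, and ARHGAP36, an inhibitor of protein kinase A, both with r = 0.83. MBNL2, a regulator of splicing (0.82), KIDINS220, a membrane scaffold for neurotrophin signalling (0.81), MORC4, a zinc finger ATPase (0.80), TMTC4, an O-mannosyltransferase of the endoplasmic reticulum (0.80), and PAK3, a kinase activated by small GTPases (0.79), completed the 10. Genes without a symbol were not named, and of these only ENSOARG00000007301 (r = 0.82, not called) fell among the same ranks.

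PKD2, first by r, had the smallest log2 difference between diets of the 10. It ranged from 11.7 to 22.7 CPM under the high diet (median 16.7) and from 22.2 to 46.7 CPM under the low diet (median 31.8), and 7 of 8 underfed sheep lay above every well-fed one. Its log2 difference was 0.70 (SE 0.16, limma, Benjamini-Hochberg adjusted p = 0.022). ARHGAP36 had the largest difference of the 10. It ranged from 155 to 413 CPM in well-fed (median 322) and from 542 to 1033 CPM in underfed sheep (median 811), without overlap, and its log2 difference was 1.23 (SE 0.20, adjusted p = 0.014 in the same limma fit with Benjamini-Hochberg adjustment). TMEM2, the most like LRRC8D in size of difference, ranged from 25.0 to 42.4 CPM and from 59.2 to 118 CPM, a log2 difference of 1.01 (SE 0.17). All 10 were called higher in underfed sheep, with log2 differences from 0.70 to 1.23 and limma adjusted p (Benjamini-Hochberg) from 0.014 to 0.027, but they were drawn from genes with a symbol, of which 76.7% were called. Within each diet alone, a measure that is part of how they were chosen, r ran from 0.62 for PAK3 to 0.90 for KIDINS220 in well-fed sheep and from 0.82 for MORC4 to 0.95 for ARHGAP36 in underfed sheep.

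At the opposite end, 5 genes ran most against LRRC8D among those with a symbol, of which 76.7% were called. Among all tested genes they ranked 3rd, 11th, 13th, 14th and 21st from the lowest r, which was -0.80. The genes ranked before and between them had no symbol. SCCPDH had r = -0.73, C3orf14 -0.70, WDR41, a partner of C9orf72, -0.69, SPINK2, a protease inhibitor of the acrosome, -0.68, and MAD2L1, a spindle checkpoint protein, -0.66. C3orf14, SPINK2 and MAD2L1 were called lower in underfed sheep, with log2 differences of -0.99, -0.85 and -0.98. SPINK2 lost its call when high diet 1, 5, 6 or 8 or low diet 4 or 6 was left out (limma, Benjamini-Hochberg adjusted p from 0.11 to 0.15). SCCPDH and WDR41 had log2 differences of -0.65 and -0.76 but a ratio of mean CPM inside the limit of 1.5, so they were not called, although WDR41 was when any one of high diet 2, 3 or 7 or low diet 1, 2 or 5 was left out.

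**Figure D4:**
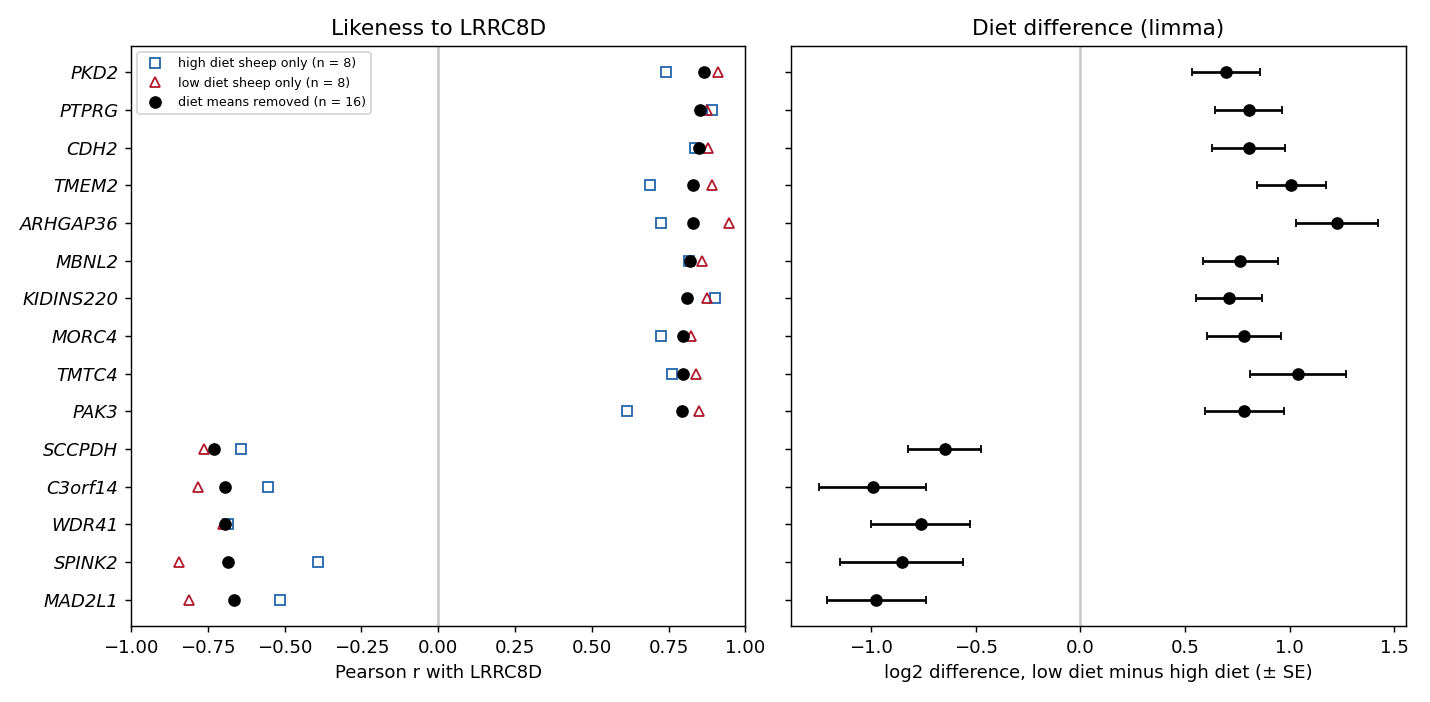
Left, Pearson's r with LRRC8D for the 10 genes most like it and the 5 most unlike it among tested genes with a symbol, over 16 sheep with diet means removed (black) and within high diet (blue squares) and low diet sheep (red triangles, n = 8 each); right, the difference of the same genes between diets (log2, low diet minus high diet, ± SE, limma). The 10 like genes have r from 0.62 to 0.95 and differ by 0.70 to 1.23, and the 5 unlike genes have negative r and negative differences.

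The 100 genes at either end of the order by r, symbol or not, were then set beside their differences between diets. Of the 100 tested genes with the highest r (0.67 to 0.87), 86 were called higher in underfed sheep and 0 lower, against 10.8% and 5.42% of all genes tested, and their median log2 difference was 0.85. Of the 27 among them without a symbol, 13 were called higher, where 4.86% of all tested genes without a symbol were called in either direction. The other calls fell among the 73 with a symbol, where 76.7% of all such genes were called. The 100 genes with the lowest r (-0.80 to -0.60) held 25 called lower and 0 called higher, with a median log2 difference of -0.56. Calls also asked for a ratio of mean CPM above 1.5, taken before TMM scaling. Over all genes, adjusted p alone gave 1215 higher and 1181 lower. Counts at the upper and lower end are therefore not directly comparable. On library totals the counts were 83 higher at the upper end and 47 lower at the lower end.

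The same lists were then drawn within each diet. When r was computed in underfed sheep alone, 84 of the 100 genes most like LRRC8D were called higher and 0 lower, with a median log2 difference of 0.79. In well-fed sheep alone it was 30 higher and 0 lower, with a median of 0.23. At the lower end, the 100 genes with the lowest r in underfed sheep alone held 18 called lower and 0 higher, and those in well-fed sheep alone held 3 lower and 1 higher, fewer lower than the 5.42% of all genes. The lists from the separate diets, each of 100 among the 11147 tested genes other than LRRC8D, shared 5 genes, or 5% of each list. A list of 100 is a smaller share of the 11147 genes than 5%, so more genes were shared than unrelated lists would share on average. No test is attached to this overlap. Whether likeness differs between diets was not tested, and LRRC8D varied less among well-fed sheep (pooled within-diet SD of 0.25 on the log2 scale, 0.18 in well-fed and 0.30 in underfed sheep). Summed germ cell and Sertoli markers, which differed between diets as given above, also varied among sheep of one diet, and their part in these correlations was not tested.

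**Figure D5:**
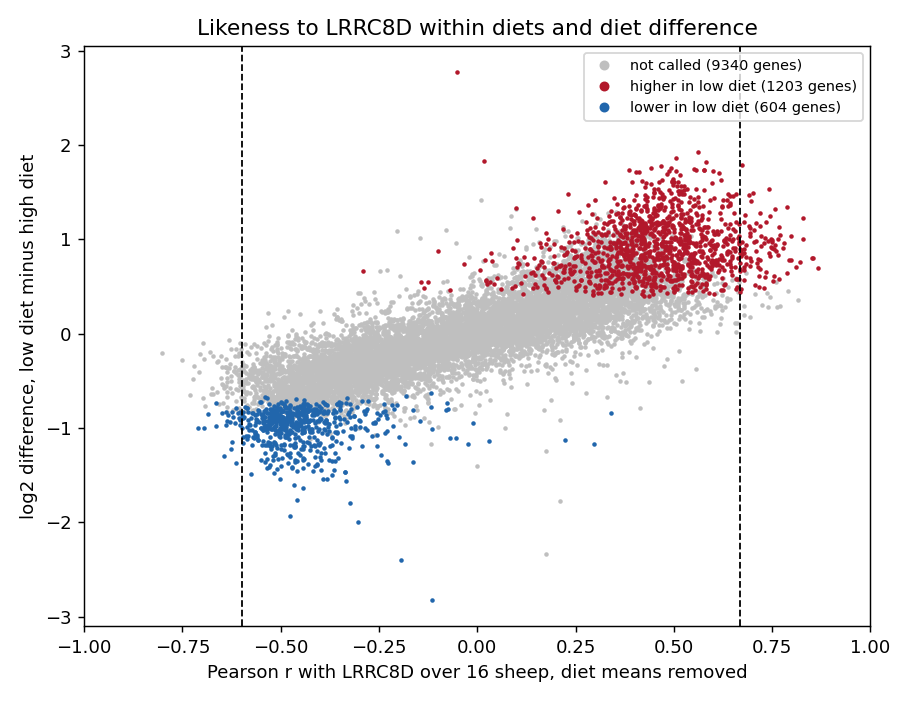
Each point is 1 of the 11147 tested genes other than LRRC8D, placed by its Pearson's r with LRRC8D over 16 sheep with diet means removed (x axis) and by its difference between diets (y axis, log2, low diet minus high diet); red and blue points were called higher or lower in low diet sheep, and dashed lines bound the 100 genes with the highest and lowest r. To the right of the upper line 86 of 100 points are red, and to the left of the lower line 25 of 100 are blue.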

How the data were processed

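Testis RNA of 16 sheep was sequenced as paired-end reads on an Illumina HiSeq system, from poly(A) libraries demultiplexed with CASAVA 1.8. The authors aligned the reads to Oar_v3.1 with TopHat2 2.0.10 and ran htseq-count with the Ensembl annotation. They deposited CPM, the count of a gene scaled to a fixed total per library, for 25197 genes. Every value was a whole multiple of the CPM of 1 read (100% of values, tolerance 0.01), which gave back the reads. Symbols came from the study's lists of differentially expressed genes and the traits from its table of the same sheep.

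LRRC8D and the gene lists were chosen with earlier results of these data known. Diets were compared with limma 3.58.1 (trend) on log2(CPM divided by TMM factor + 1), with TMM factors from edgeR 4.0.16 in R 4.3.3, for 11148 genes that exceeded 5 CPM in 8 or more libraries. A gene was called at a Benjamini-Hochberg adjusted p under 0.1, over all genes tested, together with a 1.5-fold or larger ratio of arithmetic means of CPM. The fit was tested on simulated data. edgeR's quasi-likelihood test and DESeq2 1.42.0 on the recovered reads were alternatives, besides other scalings, pseudocounts, filters, a replicate block, a covariate for testis weight and fits without 1 sheep. The set of 100 genes, its alternatives, the count over all genes under each setting and the ratio without CLDN11 were chosen after seeing the data.

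Relations with 6 traits were tested two-sided with 100000 permutations within diets, and exactly within a diet (Python 3.11.15 with scipy 1.17.1, numpy 2.4.6 and pandas 2.3.3); matplotlib 3.10.9 drew the figures. Intervals are Wilson intervals at 95%. Named genes are LRRC8D, its family and 3 neighbours on either side, genes of the volume lists with an identifier, the 10 genes most like and 5 most unlike LRRC8D by r, and the markers. Results for some listed genes are not reported here. No pair of libraries in a diet agreed within sampling noise (chi-square per gene at least 22.1 in 56 pairs).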

Additional observations from a re-analysis of the deposited data

Results flagged for a closer look

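LRRC8D itself had no sheep set apart from the rest of its diet by Dixon's test at 95% (limit 0.526 for 8 samples). Among the 72 gene-and-diet groups examined for the genes named here, 3 had one, and chance alone sets a sheep apart in about 1 of 20 groups. CLDN11 was 370 CPM in low diet 7, above 55.0 to 183 CPM in the other underfed sheep. FSHR was 28.4 CPM in high diet 1, below 35.6 to 42.0 CPM in the other well-fed sheep. PTPRC was 33.6 CPM in high diet 7, above 10.9 to 20.2 CPM in its group. Without low diet 7, high diet 1 or high diet 7, the log2 difference of LRRC8D between diets was 0.95, 0.92 and 0.98.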

How the results depend on the processing

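LRRC8D was chosen for its diet difference and the diets did not overlap, so a stable direction was largely fixed beforehand. The difference in LRRC8D kept its direction in every setting run. Its log2 value was 0.89 with DESeq2 size factors, 1.13 on library totals, 0.86 and 0.99 with pseudocounts of 5 and 0.1 CPM, 1.01 with edgeR, 1.03 with DESeq2, 0.80 (SE 0.21) with testis weight as a covariate and 0.90 to 1.04 when each sheep was left out. Sheep numbers did not pair the samples (correlations of -0.63 to 0.70 over 8 pairs, 2 above 0.1, 1 sheep most like its own number). The replicate block left the LRRC8D difference at 0.97 (SE 0.18) and the volume genes called at 5, and took all genes called from 1808 to 1067. With testis weight as a covariate 0 volume genes and 0 genes in all were called by limma, with 544 genes at an unadjusted p under 0.05 (3617 without it), a fit not run with edgeR or DESeq2, which without the covariate called 1673 and 2159. Testis weight was measured on the same testes after feeding, so its part and that of diet cannot be told apart in this fit. Leaving out each sheep gave 674 to 2684 genes in all, with 1018 without high diet 1, 836 without high diet 5, 930 without high diet 6, 865 without high diet 8, 843 without low diet 4 and 674 without low diet 6, and 3 to 5 volume genes, with 3 without high diet 5, 6 or 8 or low diet 4 or 6. Library totals gave 1563 genes higher and 455 lower, against 1204 and 604, and adjusted p alone, without the ratio of mean CPM, gave 1215 and 1181, so the ratio removed mainly genes that were lower. Among traits, r for scrotal circumference changed sign with Spearman's method (-0.10) and that for tubule diameter without the 2 farthest sheep (0.0050). With the replicate block r was 0.091 for testis weight, 0.48 for tubule diameter, 0.094 for epithelial volume and -0.30 for scrotal circumference. Leaving out each sheep, r was -0.51 to -0.24 for testis weight, -0.37 to 0.033 for sperm number, -0.37 to 0.027 for tubule diameter, -0.48 to -0.20 for epithelial volume, -0.082 to 0.21 for scrotal circumference and 0.06 to 0.29 for apoptotic germ cells, and none passed correction. Of the 10 genes most like LRRC8D, 6 were among the first 10 with Spearman's rho, 6 with diet means kept and 5 to 9 when each sheep was left out. Of the 100 most like genes, 30 were called higher with well-fed sheep alone and 76 to 88 when each sheep was left out. The causes of these changes were not tested.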
